A study of Homo sapiens with 5 samples.

Results

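The genes carried by the human mitochondrial genome were described across 5 RNA-seq libraries of HL60, an established human promyelocytic leukaemia cell line. Members were the rows of the deposited count table whose identifiers GENCODE release 29 places on chromosome M, and all 37 such genes were present among the 51055 rows: 13 mRNAs, 2 ribosomal RNAs (rRNAs) and 22 transfer RNAs (tRNAs). The choice used no expression value. The series, titled as a knockdown of miR-378-3p that mimics myelodysplastic syndrome, held 1 untransduced library, 2 libraries of cells transduced with a control lentivector (SCR) and 2 of cells transduced with a miRZip-378a-3p lentivector (ZIP), which expresses a hairpin that yields an antisense RNA to miR-378a-3p. Both vectors carry green fluorescent protein. SCR and ZIP cells were infected at a multiplicity of infection of 20 in the presence of 8 µg/mL polybrene, and puromycin selection at 2 µg/mL ran between day 3 and day 8; the untransduced cells carried neither vector and received no selection that the labels mention. Its labels describe the SCR vector as scramble in one field and as empty in another. No label says that libraries of 1 group came from separate cultures. Each p-value sets the difference between groups against the spread of these libraries within a group, and that spread may be only technical.

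Mitochondrial DNA is a small circle whose strands, called heavy and light, are each transcribed as long polycistronic RNAs. tRNAs lie between most of the other genes, and cutting them out releases the mRNAs and rRNAs; the mRNAs are then polyadenylated inside the organelle, which for some of them completes the stop codon. All of its mRNAs encode subunits of the oxidative phosphorylation machinery: complex I (NADH dehydrogenase), complex III (cytochrome bc1), complex IV (cytochrome c oxidase) and complex V (ATP synthase). Everything else that the organelle needs to copy, transcribe and translate its genome comes from nuclear genes, and complex II is built from nuclear-encoded subunits alone.

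The deposited counts summed to between 24406580 and 30925067 per library. The row of MIR378A, the gene of the targeted microRNA, held 0 counts in 4 libraries and 2 counts in ZIP 2, so these files do not check the knockdown. All 8 promyelocyte markers examined were detected in every library, at a summed level of 25081 counts per 1000000 of the scaled library size (CPM) in untransduced cells, 12314 and 12313 CPM in SCR, and 23407 and 22756 CPM in ZIP. The 7 monocyte and macrophage markers in the table summed to 8.97 CPM in untransduced cells, 129 and 131 CPM in SCR, and 13.1 and 13.4 CPM in ZIP, and none was at 0 in any library. Other marker lists summed far below the promyelocyte markers in every library, and their sums were also highest in SCR. They lay below the monocyte and macrophage markers in SCR, but the T, NK and B cell markers exceeded these in the remaining libraries. Erythroid markers summed to 9.48 CPM in the untransduced library, against 20.3 and 16.4 for the SCR pair and 7.87 and 7.40 for the ZIP pair. They also exceeded the monocyte and macrophage markers in the untransduced library. HBB, HBA1, HBA2 and AHSP were at 0 in all 5 libraries, whereas EPOR was detected in each. The 10 T, NK and B cell markers, of which MS4A1 was at 0 throughout, summed to 17.2 CPM, then 26.3 and 24.0, then 14.6 and 15.2, and the 10 fibroblast and epithelial markers, of which COL3A1 was at 0 throughout, to between 0.869 and 3.11 CPM. The SCR libraries thus stood apart from both other groups in these sums, and the part of that shift in the mitochondrial values was not tested. Single genes weigh heavily in the sums: MPO gave 19034 of the 25081 CPM of the promyelocyte markers in untransduced cells. Some markers did not follow their list. MYB was at 395 CPM in untransduced cells, 457 and 455 in SCR, and 411 and 416 in ZIP, and CD33 was similar in SCR and ZIP. S100A12, CD79A and CD3E were highest in untransduced cells. In bulk RNA, fewer cells with much mitochondrial RNA and less mitochondrial RNA per cell cannot be told apart.

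Several neighbouring genes of the circle are shown first, because the results below turn on how they sit next to each other. Sequences are those of the GENCODE 29 transcripts on GRCh38, written 5′ to 3′ on the strand of the gene. MT-TL1, a tRNA for leucine, lies at chrM:3230-3304 on the plus strand, which carries the sequence of the heavy-strand transcripts, between the large rRNA MT-RNR2 and MT-ND1. Its capitals mark bases 8 to 20, the tridecamer described as the binding segment of the mitochondrial transcription termination factor MTERF1.
MT-TL1: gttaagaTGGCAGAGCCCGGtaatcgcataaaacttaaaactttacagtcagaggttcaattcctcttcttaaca
MT-ATP8 (chrM:8366-8572, plus strand) overlaps MT-ATP6, with which it shares 1 bicistronic mRNA; capitals mark the 46 bases that both genes contain.
MT-ATP8: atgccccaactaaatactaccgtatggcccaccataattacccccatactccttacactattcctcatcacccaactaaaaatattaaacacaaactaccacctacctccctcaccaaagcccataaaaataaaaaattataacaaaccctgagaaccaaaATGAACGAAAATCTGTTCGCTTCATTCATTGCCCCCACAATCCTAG
MT-ND4L (chrM:10470-10766, plus strand) overlaps MT-ND4 in the same way; its last 60 bases are given, with the 7 shared bases in capitals.
MT-ND4L, end: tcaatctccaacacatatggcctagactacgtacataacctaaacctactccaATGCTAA
MT-TC (chrM:5761-5826) and MT-TY (chrM:5826-5891), tRNAs for cysteine and tyrosine, are adjacent on the minus strand and overlap by the 1 base in capitals.
MT-TC: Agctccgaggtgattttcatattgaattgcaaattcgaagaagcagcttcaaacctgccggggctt
MT-TY: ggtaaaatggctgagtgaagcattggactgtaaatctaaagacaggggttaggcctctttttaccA

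The classes of mitochondrial RNA did not move together. In ZIP against SCR, which compares cells with the miRZip vector with cells that carry the control vector, all 13 mRNAs were higher, 1 of 2 rRNAs was lower and 9 of the 12 tRNAs that passed the filter on low counts were higher (edgeR quasi-likelihood test, Benjamini-Hochberg adjusted p below 0.05 over 14643 genes). The other 10 tRNAs were not tested. Calls were common in this comparison: 32.2% of all genes tested were called higher and 33.2% lower, and the median log2 fold change was 0.67 over the 13 mRNAs and 0.00 over all genes. Both ZIP libraries lay above both SCR libraries for 13 of 13 mRNAs, against 40.1% of all genes tested. In SCR against untransduced cells, the mRNAs went the other way: all 13 were lower, with a median log2 fold change of -1.02 over the 13 and 0.02 over all genes, where 32.2% of 15832 genes were called lower and 32.7% higher. In ZIP against untransduced cells 11 mRNAs were lower, 1 was higher and 1 was not called, with a median of -0.31, against 29.7% of genes called lower and 28.5% called higher. At a fold of 2 or more, 8 mRNAs and 8 tRNAs were called lower in SCR against untransduced cells, where 5.86% of all genes were; in ZIP against untransduced cells 0 mRNAs passed this fold, and 3 tRNAs were higher and 4 lower, against 8.70% and 5.19% of all genes. These 3 comparisons share libraries in pairs, so their values are set side by side and not as independent results; the untransduced group is 1 library, whose spread was taken from the other groups.

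**Figure D1:**
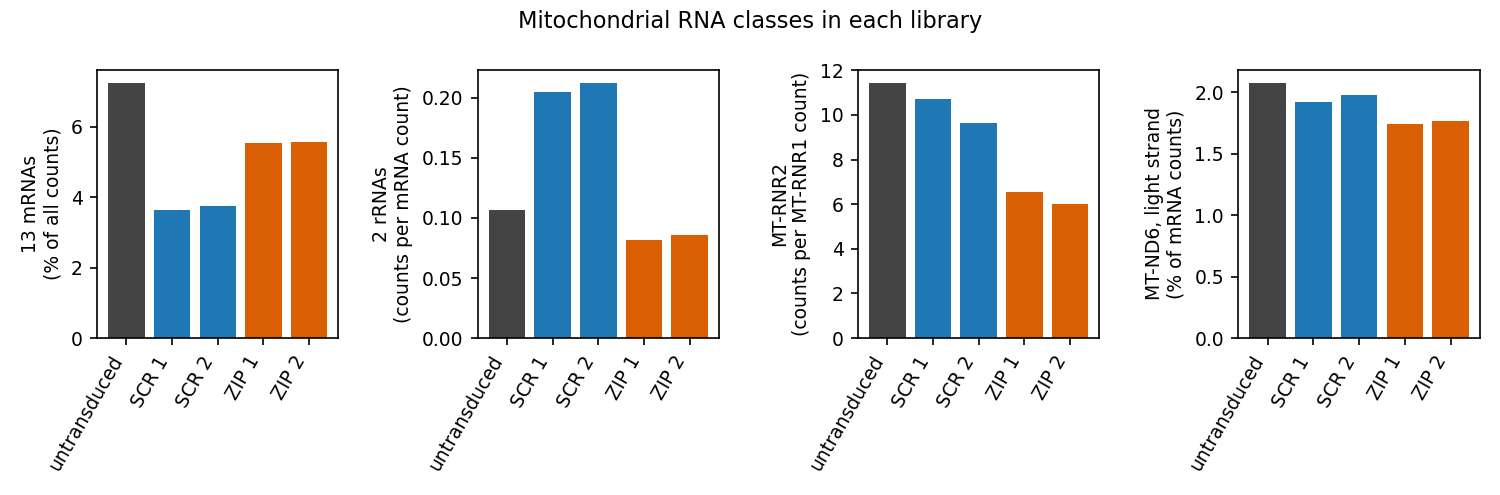
Bars, 1 per library and drawn from 0, give the 13 mRNAs as a percent of all counts, rRNA counts per mRNA count, MT-RNR2 counts per MT-RNR1 count, and MT-ND6 as a percent of mRNA counts. The mRNA share is lowest in SCR, the rRNA to mRNA ratio is highest in SCR, and both ZIP libraries are lowest in the last 3 measures.

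The 13 mRNAs took 7.25% of all counts in untransduced cells (95% Clopper-Pearson interval 7.24% to 7.26%, counting error only), 3.64% and 3.76% in SCR, and 5.53% and 5.57% in ZIP. The 2 rRNAs took 0.775% in untransduced cells, 0.746% and 0.800% in SCR, and 0.450% and 0.478% in ZIP. There were therefore 0.107 rRNA counts per mRNA count in untransduced cells, 0.205 and 0.213 in SCR, and 0.0815 and 0.0858 in ZIP. Each group occupied a range of its own in this ratio, with SCR highest and ZIP lowest. Counts in tRNA rows were 3.56 per 1000 mRNA counts in untransduced cells, 4.83 and 4.67 in SCR, and 3.95 and 3.92 in ZIP. How rRNA was depleted or mRNA selected was not given in the sources used here, so the rRNA level is that of the libraries and not of the cells.

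Complex I has 7 mitochondrial mRNAs, the largest group. MT-ND1, which encodes a core subunit of the membrane arm, was at 4927 CPM in untransduced cells, 2508 and 2602 in SCR, against 3909 and 4121 in ZIP. The log2 fold change of this gene was 0.65 ± 0.02 (SE, n = 2 and 2) in ZIP against SCR (edgeR quasi-likelihood test, adjusted p = 1e-16), and -0.95 ± 0.02 in SCR against untransduced cells. The ZIP libraries lay between SCR and untransduced cells with no overlap, a pattern shared by 10 of the other 12 mRNAs. MT-ND2, a further membrane-arm subunit, was at 4008 CPM in untransduced cells, 1815 and 1900 in SCR, and 3003 and 2922 in ZIP, a difference of 0.67 ± 0.02 between ZIP and SCR. MT-ND3, whose product joins the membrane arm near the peripheral arm, was at 1575 CPM, 906 and 983 CPM, and 1245 and 1292 CPM in the same order, and its difference of 0.43 ± 0.03 was the smallest of the 7.

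MT-ND4L and MT-ND4 are read from 1 bicistronic mRNA, yet they differed in size of change. MT-ND4L was at 1094 CPM in untransduced cells, 548 and 588 in SCR, and 1232 and 1200 in ZIP; both ZIP libraries lay above the untransduced library. Its log2 fold change of 1.10 ± 0.03 in ZIP against SCR (adjusted p = 5.7e-18) was a 2.14-fold rise, and MT-ND4L was the 1 mRNA called at 2-fold or more, against 3.13% of all genes called that far up. MT-ND4 was at 14233 CPM in untransduced cells, 5906 and 6194 in SCR, and 10833 and 10914 in ZIP, a difference of 0.85 ± 0.01 (adjusted p = 1.9e-20). Unlike MT-ND4L, it stayed below untransduced cells in ZIP, at a log2 fold change of -0.39 ± 0.02. The 7 bases that the pair shares are the capitals at the end of MT-ND4L above; which gene received the reads that cover both was not given in the sources used here.

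MT-ND5, the most distal heavy-strand mRNA of complex I, was at 4914 CPM in untransduced cells, 2684 and 2797 in SCR, and 4347 and 4481 in ZIP, a difference of 0.69 ± 0.02 between ZIP and SCR. MT-ND6 is the 1 mRNA of the light strand, and was at 1575 CPM in untransduced cells, 676 and 722 in SCR, and 971 and 993 in ZIP. It rose by 0.49 ± 0.03 in ZIP against SCR (adjusted p = 1.1e-12), and with -0.68 ± 0.03 it was, after MT-CO3, the mRNA furthest below untransduced cells in ZIP (adjusted p = 2.8e-15). Summed over the 7 mRNAs, complex I reached 32326 CPM in untransduced cells, 15044 and 15787 in SCR, and 25540 and 25923 in ZIP.

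Cytochrome b is encoded by MT-CYB and is the 1 mitochondrially encoded subunit of complex III. The mRNA was at 4116 CPM in untransduced cells, 1964 and 2094 in SCR, against 3943 and 3935 in ZIP. Its rise of 0.96 ± 0.02 in ZIP against SCR (adjusted p = 5.3e-19) was second to MT-ND4L, and nearly mirrored its difference of -1.02 ± 0.02 in SCR against untransduced cells. The remaining difference from untransduced cells was -0.06 ± 0.02 (adjusted p = 0.02), a call lost with DESeq2 (adjusted p = 0.44), with library totals as the scale (adjusted p = 0.64) and without ZIP 1 (adjusted p = 0.12).

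Complex IV has 3 mitochondrial mRNAs, which encode its catalytic core, and 2 of them, with MT-ND3, had the 3 smallest rises in ZIP against SCR. MT-CO1, the subunit that holds the oxygen-reducing centre, was at 16213 CPM in untransduced cells, 7959 and 8030 in SCR, and 10572 and 10558 in ZIP, a difference of 0.40 ± 0.01 between ZIP and SCR (adjusted p = 8.3e-19). MT-CO2, which receives electrons from cytochrome c, was at 7571 CPM, 3566 and 3726 CPM, and 5519 and 5562 CPM in the same order, with a difference of 0.60 ± 0.02. MT-CO3, a core subunit that carries no redox centre, was at 11131 CPM, 4571 and 4661 CPM, and 6361 and 6302 CPM, with a difference of 0.46 ± 0.01 (adjusted p = 1.2e-17). It had the deepest fall of all 13 in SCR against untransduced cells, at -1.27 ± 0.01 (adjusted p = 2.9e-27), and in ZIP it was still lower than in untransduced cells, at -0.81 ± 0.01. All 3 lay below the untransduced library in every transduced library, and both SCR libraries lay below both ZIP libraries.

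Complex V has 2 mitochondrial subunits, both in the membrane part of the ATP synthase and both on the bicistronic mRNA introduced above. MT-ATP6 was at 3784 CPM in untransduced cells, 1711 and 1790 in SCR, and 3141 and 3239 in ZIP, a difference of 0.87 ± 0.02 between ZIP and SCR (adjusted p = 8e-19). MT-ATP8 was at 720 CPM in untransduced cells, 376 and 484 in SCR, and 767 and 745 in ZIP, a difference of 0.82 ± 0.06 (adjusted p = 4.8e-10). As a ratio, the 2 SCR libraries differed more from each other for MT-ATP8 than for any other mRNA. MT-ATP8 was the 1 mRNA not called in ZIP against untransduced cells, at 0.07 ± 0.07 (adjusted p = 0.42). MT-ATP6 was lower there, at -0.25 ± 0.02.

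**Figure D2:**
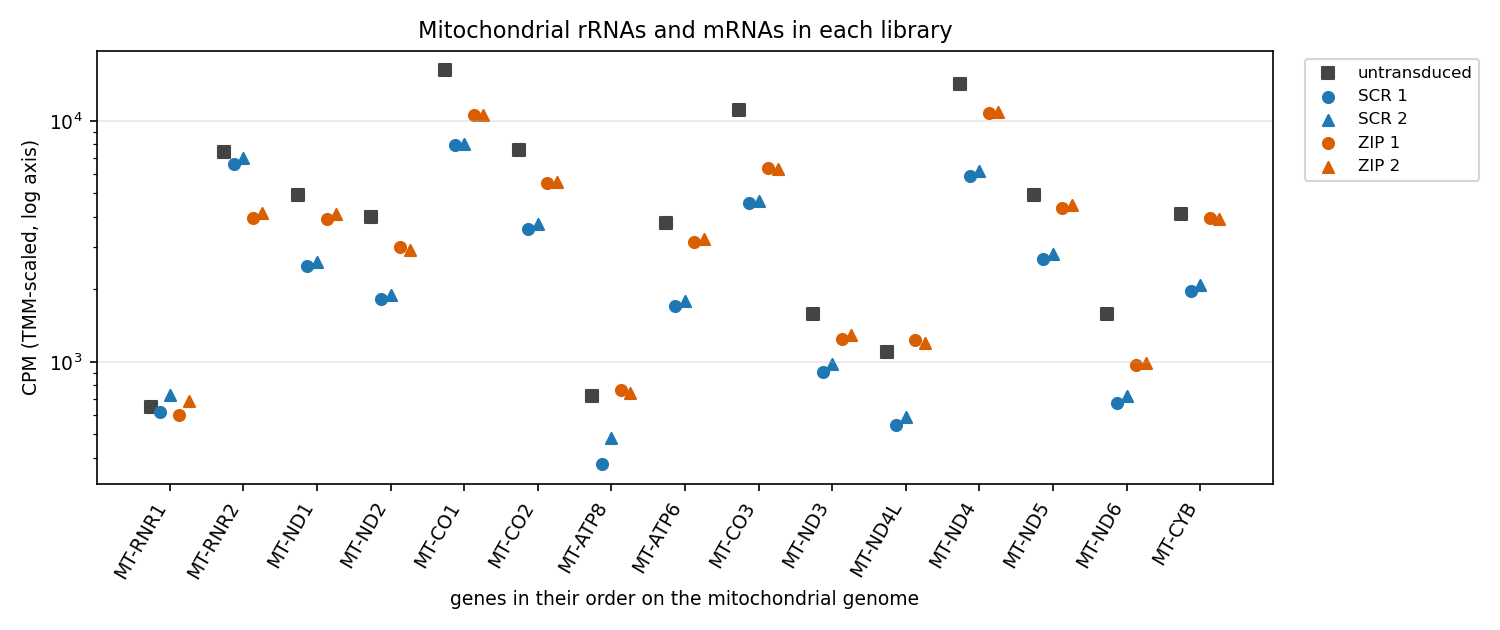
CPM of the 13 mRNAs and 2 rRNAs on a log axis, with 1 point per library and genes in their order on the genome. SCR points are lowest for every mRNA, whereas for MT-RNR2 the ZIP points are lowest.

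**Figure D3:**
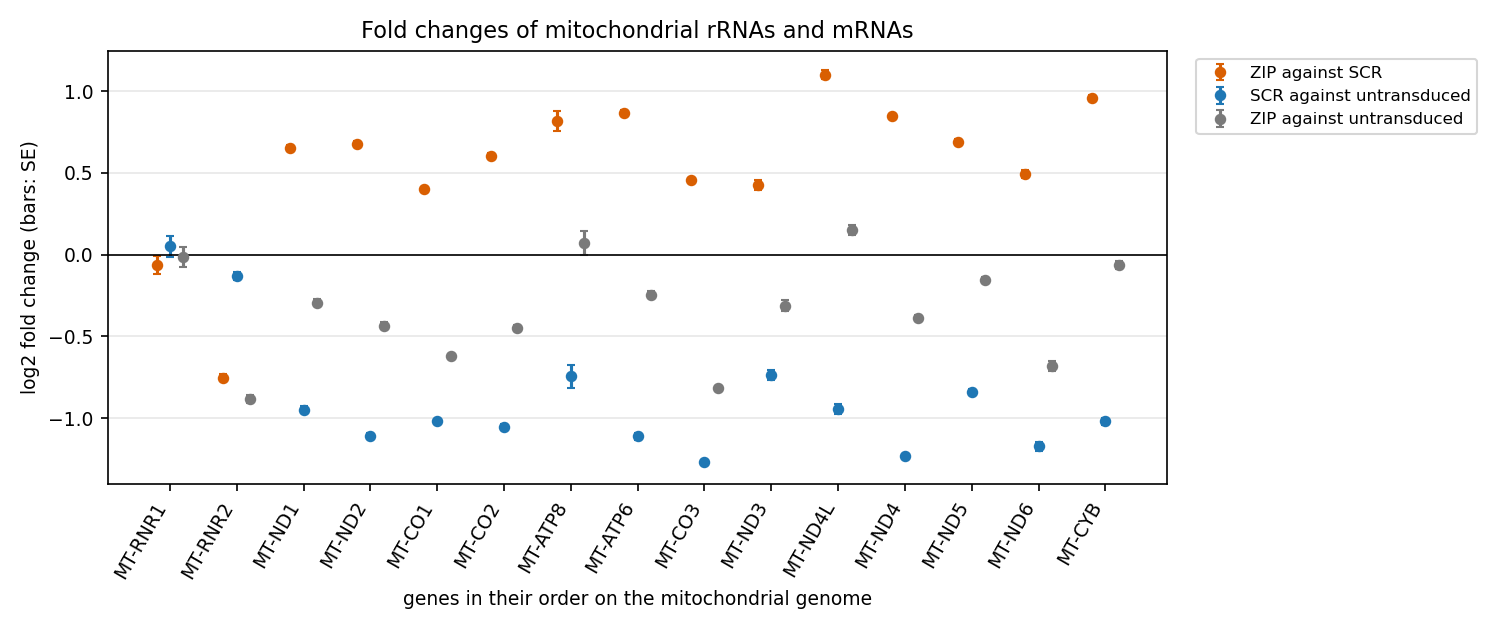
Log2 fold changes of the same 15 genes in the 3 comparisons; bars on the points are standard errors. In ZIP against SCR the mRNAs lie between 0.40 and 1.10 and in SCR against untransduced cells between -1.27 and -0.74.

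Since all mRNAs moved one way, the composition of the mitochondrial mRNA pool was examined by scaling each library to the summed counts of its 13 mRNAs, a scaling added after the data had been seen. By construction genes then fall on both sides of the sum. In ZIP against SCR, 5 mRNAs were higher relative to the sum (3.47% of all genes were called higher on this scale), 4 were lower (80.0% of all genes, or 83.5% in either direction) and 4 were not called. MT-ND4L gained 0.45 ± 0.04 on the log2 scale, MT-CYB 0.31 ± 0.03, MT-ATP6 0.22 ± 0.04 and MT-ND4 0.20 ± 0.03. MT-ATP8 gained 0.17 ± 0.04, a call lost with DESeq2 (adjusted p = 0.3) and when SCR 1 (adjusted p = 0.42) or ZIP 1 (adjusted p = 0.072) was left out. Genes that lost ground were MT-CO1 at -0.24 ± 0.03, MT-ND3 at -0.22 ± 0.04, MT-CO3 at -0.19 ± 0.03 and MT-ND6 at -0.15 ± 0.04, the last a call lost without ZIP 1 (adjusted p = 0.081). MT-ND1, MT-ND2, MT-ND5 and MT-CO2 lay between -0.04 and 0.04 and were not called.

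**Figure D4:**
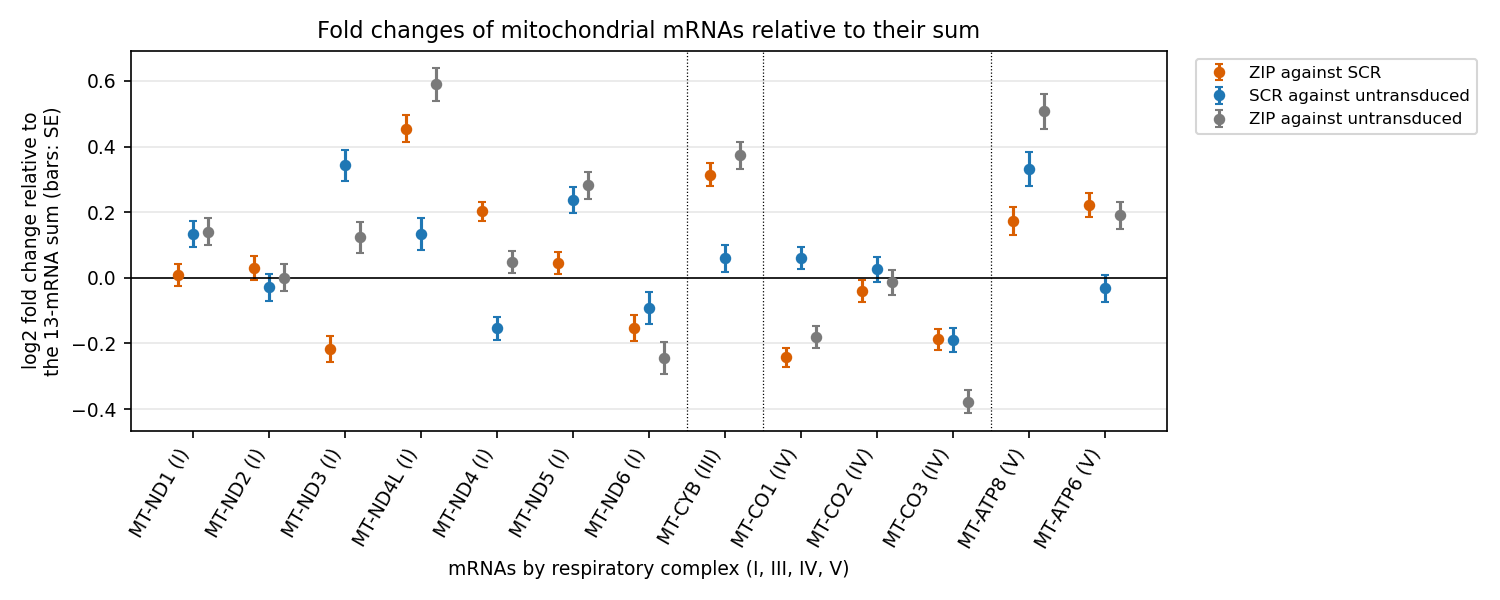
Log2 fold change of each mRNA after scaling libraries to the summed counts of the 13 mRNAs, ordered by complex, for the 3 comparisons; bars are standard errors. In ZIP against SCR, MT-ND4L and MT-CYB lie highest, at 0.45 and 0.31, and MT-CO1 and MT-ND3 lowest, at -0.24 and -0.22.

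By complex, the share of mitochondrial mRNA counts that came from complex IV genes was 46.0% in untransduced cells, 45.7% and 44.9% in SCR, and 40.2% and 39.9% in ZIP. Complex III, that is MT-CYB, took 5.43%, then 5.58% and 5.73%, then 7.06% and 6.99% in the same order. Complex I took 42.6%, then 42.8% and 43.2%, then 45.7% and 46.1%, and complex V took 5.94%, then 5.93% and 6.22%, then 6.999% and 7.08%. Both ZIP libraries were displaced from all 3 other libraries in every complex. The log2 ratios of these shares in SCR against untransduced cells were 0.0117 for complex I, -0.0224 for complex IV and 0.0325 for complex V, and 0.0342, -0.0638 and 0.0997 when counts were taken per kilobase. Some pairs of genes, chosen after their values had been seen, separated in the same way: MT-CYB had 0.254 counts per MT-CO1 count in untransduced cells, 0.247 and 0.261 in SCR, and 0.373 in both ZIP libraries. MT-ATP6 had 0.340 counts per count of its downstream neighbour MT-CO3 in untransduced cells, 0.374 and 0.384 in SCR, and 0.494 and 0.514 in ZIP. For MT-ND4L against MT-ND3 the ratios were 0.694, then 0.605 and 0.598, then 0.989 and 0.929. MT-ATP8 against MT-ATP6, from the same mRNA, did not separate the groups, at 0.190, then 0.220 and 0.270, then 0.244 and 0.230.

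Relative to the mRNA sum, SCR against untransduced cells gave 5 genes higher and 2 lower among the 13 mRNAs, where 83.6% of all genes were called higher and 1.95% lower, 85.5% in all. MT-ND3 gained 0.34 ± 0.05, MT-ATP8 0.33 ± 0.05 and MT-ND5 0.24 ± 0.04, whereas MT-CO3 was at -0.19 ± 0.04 and MT-ND4 at -0.15 ± 0.03. ZIP against untransduced cells gave 7 higher and 3 lower, against 57.3% and 8.20% of all genes. MT-ND4L was at 0.59 ± 0.05, MT-ATP8 at 0.51 ± 0.05 and MT-CYB at 0.37 ± 0.04 there, and the 3 lower mRNAs were MT-CO3 at -0.38 ± 0.04, MT-ND6 at -0.24 ± 0.05 and MT-CO1 at -0.18 ± 0.03.

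Levels of different genes were compared as CPM per kilobase of gene. MT-CO3 ranked first of the 15 mRNAs and rRNAs in 4 libraries, at 14198 CPM per kilobase in untransduced cells, 5830 and 5945 in SCR and 8114 in ZIP 1, and second at 8038 in ZIP 2, where MT-CO2 was first. MT-RNR1 ranked last in all 5 libraries, and MT-ND5 and MT-ND6 took places 13 and 14. MT-RNR2 moved most in rank, from place 7 in untransduced cells to 5 and 4 in SCR and to 12 in both ZIP libraries. MT-ND4L ranked 10 in untransduced cells, 9 and 10 in SCR, and 6 and 7 in ZIP.

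By strand, the 12 heavy-strand mRNAs and MT-ND6 of the light strand changed in the same direction in all 3 comparisons apart from MT-ND4L and MT-ATP8 in ZIP against untransduced cells. MT-ND6 made up 2.08% of mitochondrial mRNA counts in untransduced cells, 1.92% and 1.97% in SCR, against 1.74% and 1.77% in ZIP. MT-ND5, its neighbour on the opposite strand, had 3.12 counts per MT-ND6 count in untransduced cells, 3.97 and 3.87 in SCR, and 4.48 and 4.51 in ZIP. Whether the counting used the strand of reads was not given in the sources used here, so reads of MT-ND6 and reads of heavy-strand RNA across the same bases cannot be told apart. Along the heavy strand, the order of the 12 mRNAs from MT-ND1 to MT-CYB had Pearson's r = 0.42 and Spearman's rho = 0.51 with the log2 fold change in ZIP against SCR, and r = 0.085 and rho = 0.063 in SCR against untransduced cells. These correlations are across genes of 1 genome that share libraries and transcripts, and are given as a description. The mRNAs were also sorted by annotated length alone. The 6 whose annotated stop codon is incomplete (MT-ND1, MT-ND2, MT-CO3, MT-ND3, MT-ND4 and MT-CYB) had a median of 0.66 in ZIP against SCR. The 7 others had a median of 0.69. They include MT-ATP6, whose last annotated base is also the first of MT-CO3, so this sorting may not match completion by polyadenylation.

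The rRNAs followed neither the mRNAs nor each other. MT-RNR2, the rRNA of the large mitochondrial ribosomal subunit, was at 7458 CPM in untransduced cells, 6599 and 7045 in SCR, and 3947 and 4141 in ZIP. Both ZIP libraries lay below the 3 others. It fell by 0.75 ± 0.02 on the log2 scale in ZIP against SCR (adjusted p = 5.3e-17), a 1.69-fold fall, and by 0.88 ± 0.02 in ZIP against untransduced cells (adjusted p = 1.3e-18). Its difference of -0.13 ± 0.02 in SCR against untransduced cells (adjusted p = 7.7e-05) was not called with DESeq2 (adjusted p = 0.15) or with library totals as the scale (adjusted p = 0.49). The gene was thus lower in ZIP, the group in which every mRNA was higher than in SCR.

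MT-RNR1, the rRNA of the small subunit, which lies upstream of MT-RNR2 on the same transcript, was at 652 CPM in untransduced cells, 617 and 732 in SCR, and 603 and 688 in ZIP. The 2 replicates of each transduced group differed more than the groups did. The difference between ZIP and SCR was -0.06 ± 0.05 (adjusted p = 0.32); without SCR 1 it was -0.18 (adjusted p = 1.3e-05) and without ZIP 2 it was -0.15 (adjusted p = 0.019), both of which would be called lower, whereas the sign turned without SCR 2 (0.06, adjusted p = 0.1) and without ZIP 1 (0.03, adjusted p = 0.75). There were 11.4 MT-RNR2 counts per MT-RNR1 count in untransduced cells, 10.7 and 9.63 in SCR, and 6.54 and 6.02 in ZIP. Relative to the mRNA sum, MT-RNR1 was at -0.71 ± 0.04 and MT-RNR2 at -1.40 ± 0.03 in ZIP against SCR, and at 1.13 ± 0.05 and 0.95 ± 0.04 in SCR against untransduced cells.

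Across the MT-TL1 boundary shown above, MT-RNR2 had 1.51 counts per count of MT-ND1 in untransduced cells, 2.63 and 2.71 in SCR, and 1.01 and 1.005 in ZIP. The groups did not overlap, and the ratio was lowest in ZIP and highest in SCR. MT-TL1 itself held 252 counts in untransduced cells, 118 and 116 in SCR, and 236 and 188 in ZIP, which was 2.14 per 1000 MT-ND1 counts, then 1.86 and 1.73, then 1.97 and 1.89. MT-TL1 therefore went with MT-ND1: it was higher in ZIP than in SCR by 0.76 ± 0.12 (adjusted p = 9.3e-06). The nuclear gene MTERF1, whose product binds the capitals in MT-TL1, was named after its values had been seen; it was at 33.9 CPM in untransduced cells, 22.4 and 22.7 in SCR, and 27.5 and 29.04 in ZIP, a rise of 0.32 ± 0.06 in ZIP against SCR (adjusted p = 6.9e-05).

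The 22 tRNAs together held 6467 counts in untransduced cells, 4314 and 4388 in SCR, and 6755 and 5333 in ZIP, between 3.56 and 4.83 per 1000 mRNA counts, so their values are less precise. These and the counts of single tRNAs below are raw, and ZIP 1 was the largest library. Scaled, the 22 summed to 270 CPM in untransduced cells, 170 and 171 in SCR, and 221 in both ZIP libraries. How reads that run from a tRNA into its neighbour were assigned was not given in the sources used here. As for MT-ND6, reads of minus-strand tRNAs, among them MT-TC, MT-TY, MT-TP and MT-TE, cannot be told apart from heavy-strand RNA across the same bases. The adjacent pair MT-TC and MT-TY, whose sequences are given above, made up 82.7% of tRNA counts in untransduced cells, 82.3% and 83.8% in SCR, against 74.8% and 74.1% in ZIP. MT-TC held 3185 counts in untransduced cells, 2138 and 2189 in SCR, and 3106 and 2374 in ZIP, a rise of 0.24 ± 0.03 in ZIP against SCR (adjusted p = 1.5e-06). MT-TY held 2163 counts, then 1412 and 1486, then 1947 and 1579, a rise of 0.18 ± 0.04 (adjusted p = 0.00035). Both rose by less than any mRNA, and both were lower in ZIP than in untransduced cells, at -0.41 ± 0.04 and -0.49 ± 0.04.

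The other 20 tRNAs summed to 46.7 CPM in untransduced cells, 30.1 and 27.7 in SCR, and 55.6 and 57.1 in ZIP. Between MT-ND1 and MT-ND2 lie the tRNAs for isoleucine, glutamine and methionine. MT-TI held 159 counts in untransduced cells, 91 and 65 in SCR, and 291 and 225 in ZIP, a rise of 1.62 ± 0.14 in ZIP against SCR (adjusted p = 2e-09). MT-TM held 27 counts, then 5 and 10, then 37 and 23, with a rise of 1.88 ± 0.39 (adjusted p = 0.00027). MT-TV, the valine tRNA between the 2 rRNA genes, held 18 counts, then 22 and 19, then 57 and 58. Its log2 fold change was 1.39 ± 0.26 in ZIP against SCR (adjusted p = 7.6e-05) and 1.48 ± 0.34 in ZIP against untransduced cells (adjusted p = 0.00066), so it rose where MT-RNR2 beside it fell.

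At the far end of the heavy strand, beyond MT-CYB, lie MT-TT (threonine, plus strand) and MT-TP (proline, minus strand). MT-TT held 59 counts in untransduced cells, 77 and 55 in SCR, and 212 and 171 in ZIP, a rise of 1.43 ± 0.15 in ZIP against SCR (adjusted p = 5.4e-08) and of 1.50 ± 0.19 in ZIP against untransduced cells (adjusted p = 6.3e-07). MT-TP held 226 counts, then 328 and 314, then 670 and 549. It rose by 0.82 ± 0.07 in ZIP against SCR (adjusted p = 2.9e-09) and was the 1 tRNA called higher in SCR against untransduced cells, at 0.41 ± 0.11 (adjusted p = 0.0021). Both tRNAs had their highest counts in the ZIP libraries.

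MT-TH and MT-TS2, the histidine and second serine tRNAs, lie between MT-ND4 and MT-ND5 and showed another pattern. MT-TH held 143 counts in untransduced cells, 44 and 60 in SCR, against 73 and 49 in ZIP. MT-TS2 held 127 counts, then 45 and 32, then 64 and 52. Both fell in SCR against untransduced cells, by 1.55 ± 0.20 and 1.81 ± 0.21, and in ZIP against untransduced cells, by 1.42 ± 0.19 and 1.32 ± 0.20, while in ZIP against SCR they were not called, at 0.13 ± 0.21 and 0.49 ± 0.22 (adjusted p = 0.058 for the latter). Without SCR 1, MT-TS2 was called higher, at 0.77 (adjusted p = 0.022), and MT-TH turned to -0.07 (adjusted p = 0.84). MT-TE, the glutamate tRNA on the minus strand next to MT-ND6, held 42 counts in untransduced cells and 8 or 9 in each transduced library, and its log2 fold change against untransduced cells was -2.38 ± 0.42 in SCR (adjusted p = 3.3e-05) and -2.48 ± 0.42 in ZIP.

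Among the sparse tRNAs, MT-TD held 16 counts in untransduced cells, 10 and 0 in SCR, against 14 and 18 in ZIP. Its call as higher in ZIP against SCR (1.56 ± 0.64, adjusted p = 0.04) was lost when SCR 2 (adjusted p = 0.45), ZIP 1 (adjusted p = 0.071) or ZIP 2 (adjusted p = 0.24) was left out, with library totals as the scale (adjusted p = 0.05) and with DESeq2 (adjusted p = 0.56). Without SCR 1 the remaining SCR library held 0 counts, and the fitted value of 6.99 (adjusted p = 0.00026) then depends on the prior count of the fit. MT-TF held 2 counts in untransduced cells, 4 and 14 in SCR, and 13 and 8 in ZIP, and was not called in any comparison on the scale of all genes. MT-TQ held 8 counts, then 1 and 7, then 12 and 15, and MT-TG held 17, then 2 and 9, then 7 and 8. MT-TR held 12 counts in untransduced cells and between 0 and 3 in each other library. MT-TA, MT-TS1 and MT-TK had no count in any library, and MT-TN, MT-TW and MT-TL2 were not tested in any comparison. Over the 16 tRNAs tested against untransduced cells, 1 was higher and 10 lower in SCR, against 32.7% and 32.2% of all genes, and 4 were higher and 7 lower in ZIP, against 28.5% and 29.7%.

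Many copies of mitochondrial genes in the nuclear chromosomes have similar sequence, so reads of one can be counted in the other. Of the copies and MTRNR2L genes, 15 passed the filter in ZIP against SCR, and 12 of them were called higher and 0 lower, against 32.2% and 33.2% of all genes. MTCO3P12 on chromosome 1 (634376 to 634922) is identical to MT-CO3 at 98.17% of 547 aligned bases; it held 31367 counts in untransduced cells, 15118 and 16255 in SCR, and 27152 and 21293 in ZIP, and its difference between ZIP and SCR was 0.53 ± 0.03. Its counts were between 11.8% and 14.0% of those of MT-CO3. Summed over all copies there were 2.66 counts per 100 mitochondrial mRNA counts in untransduced cells, 2.53 and 2.57 in SCR, and 2.43 in both ZIP libraries. Adding the counts of each copy to its gene changed no call of the 13 mRNAs in ZIP against SCR.

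Nuclear genes of the mitochondrial expression pathway were then read beside the members; their lists were chosen with results of these data known. Their counts stand beside 32.2% of all genes called higher and 33.2% lower in ZIP against SCR, and 32.7% higher and 32.2% lower in SCR against untransduced cells. Of 9 transcription genes tested, 5 were higher and 0 lower in ZIP against SCR (median 0.32), and 0 were higher and 8 lower in SCR against untransduced cells (median -0.43). POLRMT, the mitochondrial RNA polymerase, was at 95.4 CPM in untransduced cells, 70.7 and 70.8 in SCR, and 125 and 122 in ZIP. It rose by 0.80 ± 0.03 in ZIP against SCR (adjusted p = 9.6e-15) and was above untransduced cells in both ZIP libraries, by 0.37 ± 0.04. TFAM, which packages mitochondrial DNA and starts transcription, was at 145 CPM, then 125 and 121, then 153 and 164, a rise of 0.37 ± 0.03. TFB2M, the initiation factor that opens the promoter, rose by 0.32 ± 0.04, and MTERF3, of the termination factor family, by 0.51 ± 0.06. TEFM, the elongation factor, was at -0.02 ± 0.08 (adjusted p = 0.88).

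Of 24 genes of RNA cleavage and tRNA maturation, 14 were higher and 3 lower in ZIP against SCR (median 0.22), and 1 was higher and 17 lower in SCR against untransduced cells (median -0.36). HSD17B10 and TRMT10C, subunits of the enzyme that cuts tRNAs at their 5′ ends, rose by 0.74 ± 0.03 and 0.61 ± 0.04, ELAC2, which cuts the 3′ ends, rose by 0.56 ± 0.03, and QTRT1, of a tRNA base-modifying enzyme, rose by 0.66 ± 0.05. Of 24 genes of mRNA stability, polyadenylation and decay, 17 were higher and 1 lower in ZIP against SCR (median 0.26). LRPPRC, which stabilises mitochondrial mRNAs, was at 712 CPM in untransduced cells, 803 and 791 in SCR, and 893 and 899 in ZIP, a rise of 0.17 ± 0.02; its partner SLIRP was at 0.08 ± 0.06 (adjusted p = 0.25). LRPPRC was higher in SCR than in untransduced cells, unlike all 13 mRNAs and unlike most of its list. Of these 24 genes, 2 were higher and 18 lower in SCR against untransduced cells (median -0.47). MTPAP, the mitochondrial poly(A) polymerase, rose by 0.42 ± 0.04. SUPV3L1 and PNPT1, the helicase and the nuclease of the degradosome, rose by 0.59 ± 0.03 and 0.30 ± 0.03, and PDE12, which removes poly(A) tails, by 0.60 ± 0.04. FASTKD5 and RPUSD4, which act in RNA processing and in pseudouridylation, rose by 0.74 ± 0.05 and 0.61 ± 0.04.

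Translation factors were higher for 12 and lower for 4 of 19 in ZIP against SCR (median 0.25), among them TUFM, the elongation factor that brings charged tRNAs, at 0.50 ± 0.03, GFM1, the translocation factor, at 0.71 ± 0.03, GUF1, a translational GTPase, at 0.82 ± 0.03 and LETM1, an inner-membrane ion exchanger that binds ribosomes, at 0.56 ± 0.03. In SCR against untransduced cells, 4 of these 19 factors were higher and 14 lower (median -0.38). Genes of mitochondrial DNA replication and nucleotide supply went both ways in ZIP against SCR, with 11 higher and 7 lower of 23 (median 0.04). TWNK, the replicative helicase, rose by 0.63 ± 0.04, POLG, the DNA polymerase, by 0.32 ± 0.03 and the nucleotide carrier SLC25A36 by 0.50 ± 0.03, whereas RRM2, a ribonucleotide reductase subunit, fell by 0.54 ± 0.03 and TYMP, thymidine phosphorylase, by 1.79 ± 0.07. Of 14 nuclear regulators tested, 6 were higher and 6 lower, against 32.2% and 33.2% of all genes. PPRC1 and PPARGC1B, coactivators of the PGC-1 family, rose by 0.64 ± 0.03 and 0.44 ± 0.04 and MYC by 0.39 ± 0.02, and PPARD, a nuclear receptor of lipid metabolism, and NFE2L2, of the oxidative stress response, fell by 2.07 ± 0.08 and 1.06 ± 0.04. In SCR against untransduced cells MYC fell by 1.13 ± 0.02.

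**Figure D5:**
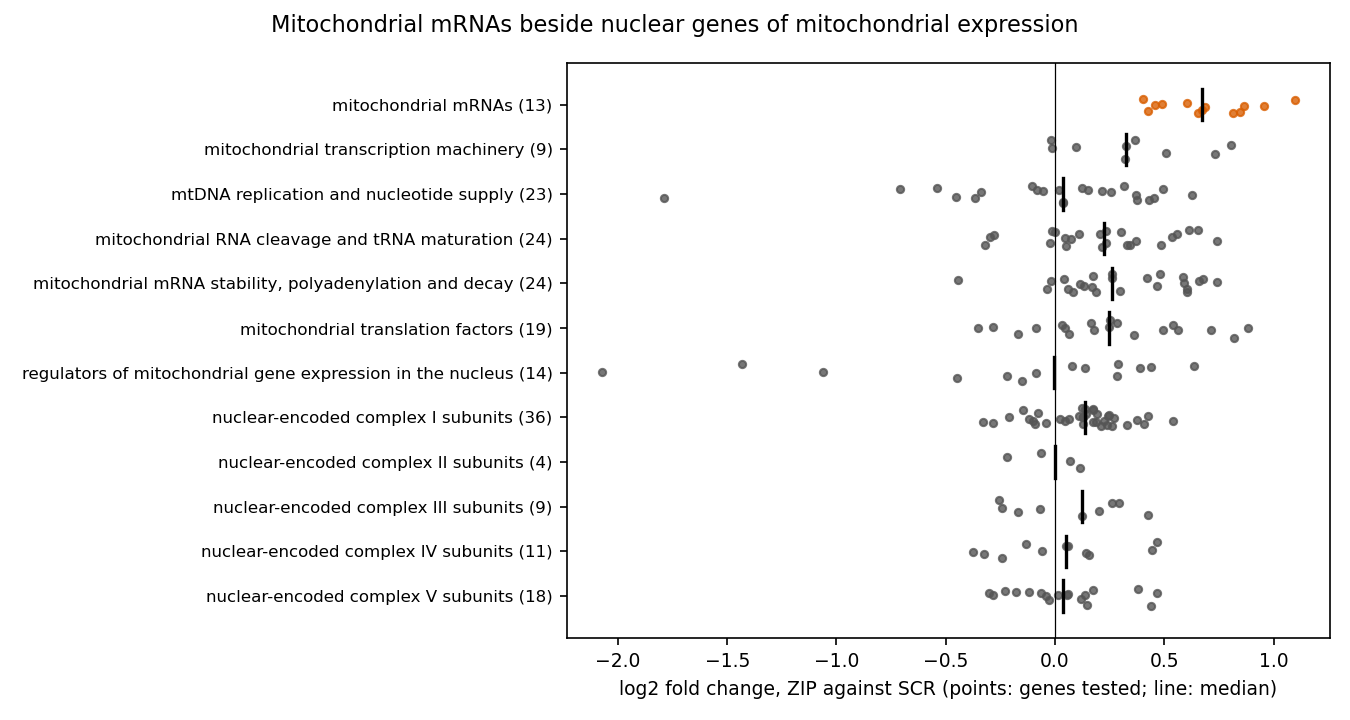
Log2 fold change in ZIP against SCR of each gene tested in the lists of nuclear genes, with the 13 mitochondrial mRNAs in the top row; points are genes, vertical lines are medians and the number of genes is in brackets. All 13 mitochondrial mRNAs lie above 0, whereas lists of respiratory subunits spread on both sides of 0.

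The nuclear-encoded partners of the mitochondrial subunits had smaller median differences than the 13 mRNAs in ZIP against SCR and in SCR against untransduced cells. In ZIP against SCR, complex I had 24 subunit genes higher and 6 lower of 36 (median 0.14), complex III 5 higher and 4 lower of 9 (median 0.12), complex IV 4 higher and 4 lower of 11 (median 0.05) and complex V 7 higher and 6 lower of 18 (median 0.03). Complex II, which has no mitochondrial subunit, had 1 higher (SDHA, 0.12 ± 0.03) and 1 lower (SDHB, -0.22 ± 0.03) of 4. NDUFB10 and NDUFC2, accessory subunits of complex I, rose by 0.54 ± 0.03 and 0.41 ± 0.03, and NDUFV1, which binds NADH, rose by 0.33 ± 0.03. UQCR11, UQCRFS1 and CYC1 of complex III rose by 0.42 ± 0.04, 0.29 ± 0.03 and 0.20 ± 0.03, and UQCRC2 fell by 0.24 ± 0.03. In complex IV, COX5A rose by 0.44 ± 0.03 and NDUFA4 by 0.47 ± 0.04, and COX7A2 and COX7C fell by 0.33 ± 0.03 and 0.37 ± 0.03. In complex V, ATP5F1A rose by 0.38 ± 0.02, ATP5F1D by 0.44 ± 0.03 and ATP5MC1 by 0.47 ± 0.04, and ATP5MG fell by 0.30 ± 0.03. For complexes IV and V these counts are near the shares over all genes, 32.2% higher and 33.2% lower.

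In SCR against untransduced cells, where 32.2% of all genes were lower, 31 of 36 nuclear subunit genes were lower in complex I (median -0.37), 8 of 9 in complex III (median -0.33), 9 of 12 in complex IV (median -0.37) and 15 of 18 in complex V (median -0.36). Complex II differed in this, with 2 higher and 1 lower of 4 (median 0.12). In ZIP against untransduced cells 28 of 36 complex I genes, 6 of 9 complex III genes, 11 of 12 complex IV genes and 17 of 18 complex V genes were lower, against 29.7% of all genes. Their medians there were -0.26, -0.33, -0.295 and -0.36 in this order, beside -0.31 for the 13 mRNAs. The monocyte and macrophage markers were higher in SCR than in untransduced cells, with 5 of 7 called higher and 1 lower. In ZIP against SCR, 0 of these markers were higher and 6 lower (median -2.83). The part of these markers in the mitochondrial and nuclear subunit values was not tested.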

How the data were processed

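The authors deposited whole-number read counts per gene for the 5 libraries (per the file headers, 1 column per library), and these counts were used as deposited. Total RNA was isolated with a mirVana kit, a small RNA library kit is named, and sequencing was on an Illumina HiSeq instrument, per the labels' protocols. Yet protein-coding genes outside chromosome M took 89.5% of all counts in untransduced cells, 93.3% and 92.8% in SCR, and 91.6% and 91.4% in ZIP. Whether the named kit made these libraries cannot be checked here. Alignment and counting tools named in the submitters' processing notes are Bowtie2 and featureCounts; genome build, annotation, strand setting and treatment of reads with several matches were not given in the sources used here. GENCODE 29 symbols matched 44305 of 51055 identifiers. No column lacked a sample.

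Genes passing filterByExpr (minimum count 10, minimum total 15) were scaled by TMM and tested with edgeR 4.0.16 (quasi-likelihood, R 4.3.3), with Benjamini-Hochberg adjustment over all genes tested and a threshold of 0.05. ZIP against SCR used 4 libraries; comparisons with untransduced cells used all 5, with the spread of the lone untransduced library assumed equal to theirs. CPM are counts per 1000000 of the TMM-scaled library size; errors are standard errors of the log2 fold change. The code was tested on simulated data. Alternatives were DESeq2 1.42.0, other scalings and filters, a replicate block, adding pseudogene copies and leaving out each replicate; scaling to the 13 mRNAs was added after the data had been seen.

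The members and lists were chosen with earlier results of these data known. The text names all mRNAs and rRNAs, tRNAs passing the filter, 12 always-named nuclear genes and up to 4 genes of smallest p per mitochondrial list; MTERF1 lies outside this rule. Some genes that the rule would name are not reported here. Lists covered mitochondrial transcription, mtDNA replication, RNA cleavage, mRNA stability, translation factors, nuclear regulators, nuclear subunits of complexes I to V, nuclear-retained RNAs and cell type markers.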

Additional observations from a re-analysis of the deposited data

How the results depend on the processing

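Over 416 alternative values of single mRNAs, 410 kept their side of the threshold, 3 lost and 3 gained a call; for rRNAs this was 56, 2 and 6 of 64, for tRNAs 440, 12 and 6 of 458, and relative to the 13 mRNAs 327, 12 and 6 of 345. No called value reversed under the alternatives run; 16 values called in neither setting changed sign, among them MT-RNR1, MT-TF and MT-TH in ZIP against SCR, and the SCR against untransduced ratio of complex V turned to -0.0018 without SCR 2. With DESeq2, 3023 genes rather than 4705 were called lower in ZIP against untransduced cells. Leaving out 1 replicate gave 1 to 2 mRNAs called higher there: MT-ATP8 joined MT-ND4L without SCR 1, SCR 2 or ZIP 2. Library totals as the scale moved the median of all genes in SCR against untransduced cells to 0.13, that of the 13 mRNAs to -0.91, and MT-RNR1 to 0.16, then called higher (adjusted p = 0.026). With counts per kilobase, log2 ratios of complex shares were, for complex I, 0.0666 in place of 0.0957 (ZIP against SCR) and 0.0342 in place of 0.0117 (SCR against untransduced), for complex III 0.34 in place of 0.37 (ZIP against untransduced), for complex IV -0.0638 in place of -0.0224 (SCR) and -0.23 in place of -0.20 (ZIP against untransduced), and for complex V 0.0997 in place of 0.0325 and 0.29 in place of 0.25. Same-numbered SCR and ZIP libraries did not deviate together (r = 0.016 over 14643 genes); with the replicate block 9709 genes were called in ZIP against SCR in place of 9571, and MT-RNR1 became called lower (-0.06, adjusted p = 0.016). Of the 22 tRNAs, 10 did not pass the filter on low counts in ZIP against SCR and were not tested.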

Other observations

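Among 4 nuclear-retained RNAs tested, 3 were called higher and 0 lower in ZIP against SCR, against 32.2% and 33.2% of all genes. MALAT1 rose by 0.27 ± 0.03 and NEAT1 was at -0.03 ± 0.03. Their summed level was 661 CPM in untransduced cells, 762 and 797 in SCR, and 836 and 863 in ZIP. NEAT1 rose from untransduced cells to SCR but not from SCR to ZIP, at 281 CPM, then 403 and 436, then 409 and 414. MALAT1 (302, then 289 and 290, then 336 and 361), SNHG14 and PVT1 were lowest in SCR and rose in ZIP against SCR. In SCR against untransduced cells, only PVT1 of these was called lower, at -0.24 ± 0.08. MALAT1, at -0.06 ± 0.04, and SNHG14, at -0.08 ± 0.05, were not called there. Small and structural RNA genes of the nuclear chromosomes summed to 117 CPM in untransduced cells, 91.3 and 116 in SCR, and 146 and 150 in ZIP. By annotated strand, the tRNAs of the light strand held 5624 counts in untransduced cells, 3888 and 4005 in SCR, and 5743 and 4526 in ZIP, and those of the heavy strand 843, then 426 and 383, then 1012 and 807. These are raw counts, not scaled to the library totals, of which ZIP 1 had the largest. Since the strand setting of the counting was not given, this split may not be that of the RNA.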
